A study of Mus musculus with 12 samples.

Results

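A set of 8 genes of bone and cartilage was followed through early reprogramming of mouse embryonic fibroblasts (MEFs), chosen by name from the 20325 genes in the tables: Spp1, Dmp1, Ibsp, Acan, Comp, Sox9, Sp7 and Alpl. All 8 were found by their gene symbol in each of the 12 libraries, and all 8 passed the filter on low counts. The name bone and cartilage matrix genes covers 5 secreted matrix proteins, a phosphatase and 2 transcription factors. Ibsp, Acan and Sp7 passed the filter on their counts in MEFs, so only a fall could be measured well for them, and their calls are not used as support for a shared direction.

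RNA came from 6 groups of 2 libraries. All cells carried floxed AF10 (Mllt10) alleles, an OSKM cassette and rtTA. MEF_fl and MEF_creAF10 were MEFs in MEF medium, with genotype AF10 fl/fl after the empty virus Ad5-CMV-Empty or AF10 -/- after Ad5-CMV-Cre. The other 4 groups were on day 4 of reprogramming with 2 µg/mL doxycycline. Day4_fl_DMSO and Day4_creAF10_DMSO were AF10 fl/fl and AF10 -/- cells in the vehicle DMSO, and Day4_fl_SGC and Day4_creAF10_SGC were the same genotypes with 5 µM SGC0946, which blocks DOT1L, the histone methyltransferase that AF10 binds. Day 4 cells grew in ESC medium with leukemia inhibitory factor on gelatin and DR4 feeder MEFs. The labels do not say whether feeders were removed before RNA was taken, so feeder RNA may be part of every day 4 value, which was not tested. Doxycycline, medium and feeders therefore changed together between MEFs and day 4 and cannot be told apart. The Cre virus was not given to cells without floxed alleles, so deletion and virus cannot be told apart either. The labels name the cell line Conditional AF10 and do not say how many embryos it came from.

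Bone matrix is made by osteoblasts and osteocytes, which lay down collagen and acidic phosphoproteins and let mineral form on them. Cartilage is made by chondrocytes, whose matrix holds the proteoglycan aggrecan. SOX9 is the transcription factor that sets the chondrocyte programme, and SP7 (osterix) acts with RUNX2 in osteoblasts. Several of these genes are also used outside the skeleton: osteopontin, the Spp1 product, is made by macrophages and epithelia, and tissue-nonspecific alkaline phosphatase, the Alpl product, is high in pluripotent cells and is a classical early mark of reprogramming.

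Library totals were 14602536 to 22800753 expected counts. Mllt10 had 43.1 and 45.4 CPM (counts scaled to a common library size) in MEF_fl. The MEF_creAF10 libraries had 35.3 and 34.4, and day 4 libraries had 54.2 to 61.4 CPM in the 4 fl libraries and 40.5 to 44.2 in the 4 AF10-deleted ones. The tables hold 1 transcript of Mllt10, so its count does not separate the deleted stretch from the rest. Replicate numbers 1 and 2 were taken to follow the same pair of cell sources through all 6 groups. Y-linked genes were high in replicate 1 and nearly absent in replicate 2. They show the sex of the cells and not which source they came from, so the pairing is an inference. The unpaired fit has a term per group, and the paired fit also holds a term for the source within MEFs and within day 4. P-values of the unpaired fit therefore include the spread between these 2 sources. Those of the paired fit measure how far changes differed between the sources once that term was taken out. Neither measures the spread between many animals. In both, a gene was called at an adjusted p under 0.05. In bulk RNA, fewer cells of a type and less RNA per cell cannot be told apart, for any result here.

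Spp1, Dmp1 and Ibsp encode secreted acidic phosphoproteins that bind integrins and mineral and whose genes lie close together on chromosome 5. The order there, from RefSeq GRCm38.p6, is Hsd17b13, Hsd17b11, Nudt9, Sparcl1, Dspp, Dmp1, Ibsp, Mepe, Spp1 and Pkd2, among other genes. The 250 bases before annotated starts of these 3 genes are shown because Spp1 and Dmp1 had more reads on day 4 than in MEFs while Ibsp, between them, had fewer. They are RefSeq sequences of GRCm38.p6, plus strand, at chr5:104434861-104435110 for the first start of Spp1, chr5:104435942-104436191 for its inner start, chr5:104202367-104202616 for the start of the deposited Dmp1 transcript and chr5:104299037-104299286 for Ibsp. The deposited counts used build mm9, so these windows only illustrate the loci. Capitals mark, in the windows of Spp1's first start, of Dmp1 and of Ibsp, matches to ACCACA (a RUNX motif), GGAAGT (an ETS motif), CCAAT (here on the opposite strand) and TTTAAA (a motif like the TATA box), and in the inner Spp1 window the octamer ATGCAAAT, the motif of OCT factors.
Spp1 first start: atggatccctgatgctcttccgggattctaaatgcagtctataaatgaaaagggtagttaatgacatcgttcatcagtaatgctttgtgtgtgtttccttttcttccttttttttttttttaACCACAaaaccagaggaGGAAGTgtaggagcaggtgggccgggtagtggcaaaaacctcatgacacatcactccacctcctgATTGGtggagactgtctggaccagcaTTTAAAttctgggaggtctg
Spp1 inner start: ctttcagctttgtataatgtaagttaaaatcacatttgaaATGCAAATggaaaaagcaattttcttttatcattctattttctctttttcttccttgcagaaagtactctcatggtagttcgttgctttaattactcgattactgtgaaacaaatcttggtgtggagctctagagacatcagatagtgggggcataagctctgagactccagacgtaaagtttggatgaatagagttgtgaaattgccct
Dmp1: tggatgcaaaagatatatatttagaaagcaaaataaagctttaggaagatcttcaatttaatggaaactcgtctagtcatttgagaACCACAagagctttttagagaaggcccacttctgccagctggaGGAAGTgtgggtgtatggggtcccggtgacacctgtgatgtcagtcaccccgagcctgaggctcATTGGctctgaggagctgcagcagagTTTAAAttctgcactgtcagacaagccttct
Ibsp: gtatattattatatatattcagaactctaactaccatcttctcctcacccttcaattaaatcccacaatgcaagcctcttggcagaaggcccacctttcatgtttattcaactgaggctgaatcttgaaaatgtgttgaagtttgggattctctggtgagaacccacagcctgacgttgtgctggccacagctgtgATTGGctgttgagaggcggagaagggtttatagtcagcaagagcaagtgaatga

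The first Spp1 window and the Dmp1 window shown carried the same 4 matches in the same order. The reference holds a further Dmp1 start, not shown, whose window had a CCAAT match 101 bases before the start and none of the other 3. In Spp1 they began 128, 111, 46 and 20 bases before the start, and in Dmp1 164, 121, 57 and 31. The Ibsp window held the CCAAT match, 54 bases before the start, and none of the other 3. Searched on both strands over 32851 promoter windows of the same reference, each with 250 bases before a start, ACCACA was found in 14% of windows, GGAAGT in 19.7%, CCAAT in 33.8% and TTTAAA in 12.1%. The 4 in this order and orientation were found in 2 windows (0.00609%), those of Spp1 and Dmp1. That share is a description, since the motifs and their order were read from these sequences. The longest run that Spp1 and Dmp1 shared was GGAGGAAGTGT, which includes the ETS match and occurred in 45 windows (0.137%). Dmp1 and Ibsp shared AGAAGGCCCAC, found in 6 windows.

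The inner Spp1 window, which lies downstream of the first start, held the octamer ATGCAAAT 210 bases before the inner start and none of the other motifs. OCT4, the Pou5f1 product and an induced factor, binds the octamer, and an OCT4-bound palindromic element in the first intron of Spp1 is known. The octamer was in 1.6% of the 32851 windows. The AP-1 motif TGANTCA, found in 6.75% of windows, was in none of the windows of these genes. Windows were at hand for 5 of the 8 genes. A match says only that the letters are present.

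Spp1 was the most abundant of the 8 genes in every group. Per length, it had 558 ± 183 TPM (a level scaled for transcript length and library size; SD, n = 2) in MEF_fl. In MEF_creAF10 the level was 493 ± 112 TPM. The day 4 levels were 2040 ± 379 TPM in Day4_fl_DMSO, 2963 ± 545 in Day4_creAF10_DMSO, 4008 ± 727 in Day4_fl_SGC and 4355 ± 883 in Day4_creAF10_SGC. Its rank by TPM among the 20325 genes was 201 to 344 in the 4 MEF libraries, and 34 and 9 in replicates 1 and 2 of Day4_creAF10_SGC. In MEF_fl the next genes were Comp at 106 ± 89.0 TPM and Sox9 at 20.7 ± 3.28, while Dmp1, Ibsp, Alpl, Sp7 and Acan lay between 0.720 and 2.76 TPM on average. In Day4_fl_DMSO the order was Spp1, Alpl (10.1 ± 2.50 TPM), Dmp1 (7.68 ± 2.99), Comp (6.68 ± 2.39) and Sox9 (2.29 ± 0.62). Alpl, Dmp1 and Comp overlapped in TPM there, and Sp7, Ibsp and Acan were at 0.115, 0.025 and 0.01 TPM.

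**Figure D1:**
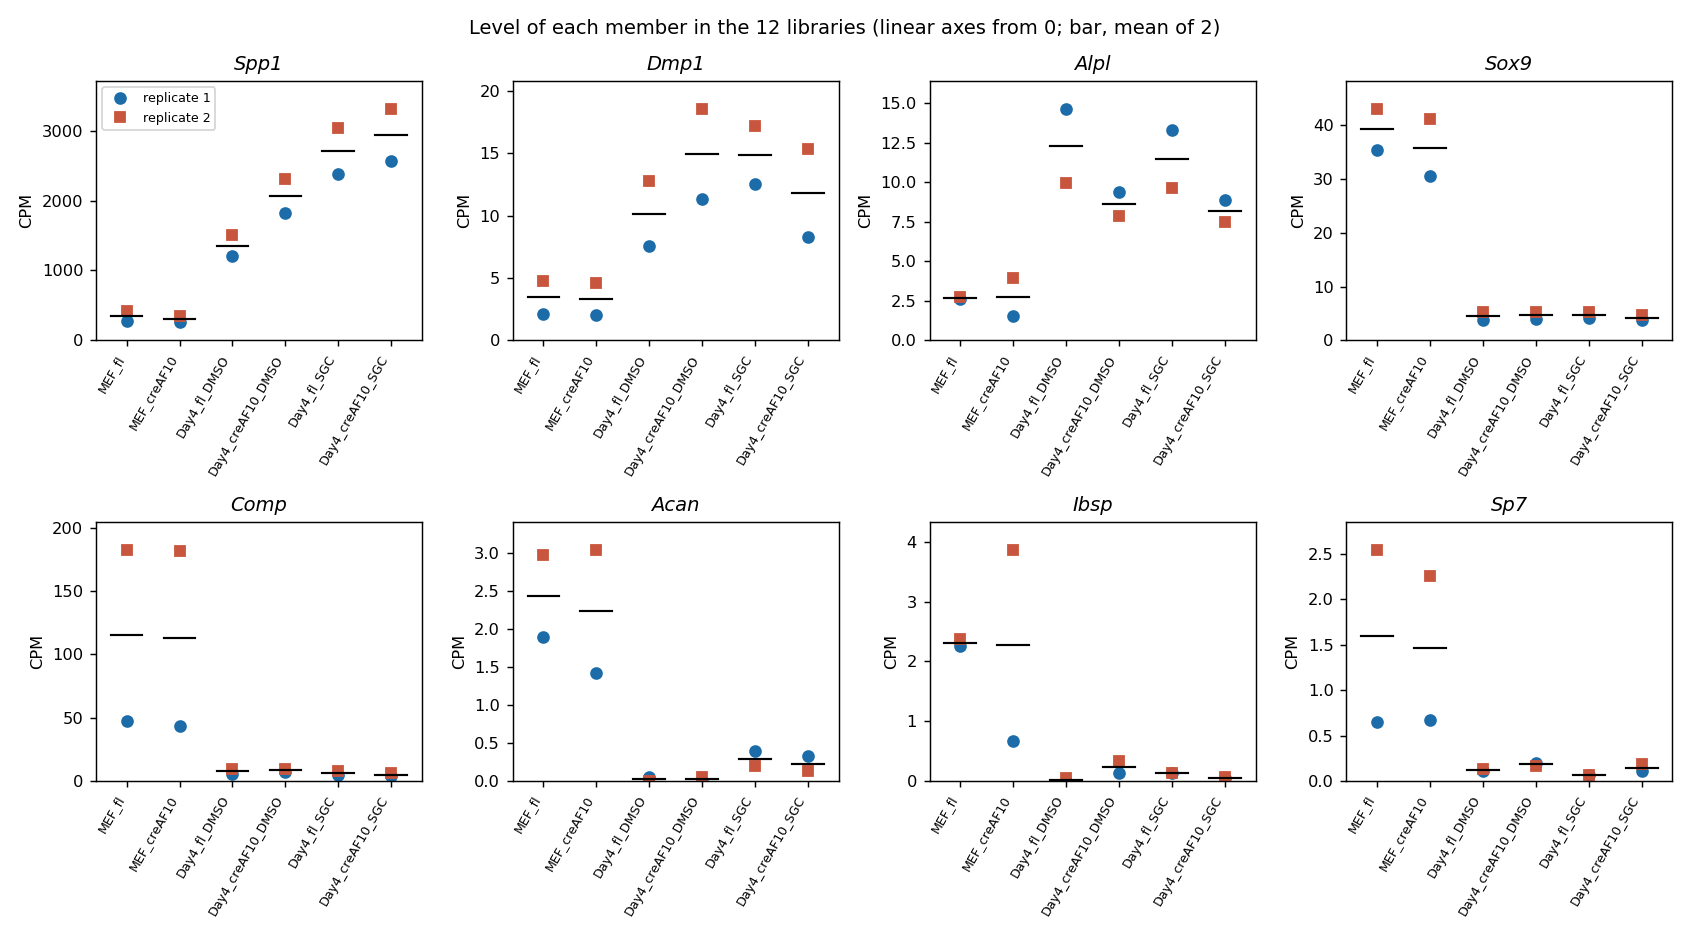
CPM of the 8 genes in each of the 12 libraries, on linear axes that start at 0, with a circle for replicate 1, a square for replicate 2 and a bar for their mean. Spp1, Dmp1 and Alpl are higher in the day 4 groups than in MEFs, and Sox9, Comp, Acan, Ibsp and Sp7 are lower.

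Day 4 was compared with MEFs to ask how the transcripts of these genes stood after the start of reprogramming. In fl cells Spp1, Dmp1 and Alpl rose and Sox9, Comp, Acan, Ibsp and Sp7 fell, and the same directions were called in AF10-deleted cells. The 5 genes with enough reads at both times (Spp1, Dmp1, Alpl, Sox9 and Comp) were all called in each genotype, 3 higher and 2 lower. The background was 52% of the 13936 genes tested in fl cells (25.7% higher and 26.3% lower) and 55% after AF10 deletion (27.5% in each direction). Acan, Ibsp and Sp7 were called lower too, but they were tested only because of their MEF counts and are not counted here. In this comparison a call was therefore common for any gene, and the sizes carry more than the count. Values of the unpaired fit are given for it, because the paired one takes the difference between the 2 sources out of each stage separately.

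Spp1 had 274 and 426 CPM in replicates 1 and 2 of MEF_fl and 1201 and 1511 in Day4_fl_DMSO. In MEF_creAF10 it had 266 and 351 CPM, and in Day4_creAF10_DMSO 1820 and 2313. No day 4 library came near a MEF library. The log2 change was 1.95 ± 0.26 (SE) in fl cells and 2.74 ± 0.27 after AF10 deletion (quasi-likelihood test in edgeR, p adjusted by Benjamini-Hochberg = 0.000303 and 4.56e-05).

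Dmp1, a matrix phosphoprotein of osteocytes and of dentin, was a low transcript. It had 2.08 and 4.79 CPM in MEF_fl, 7.53 and 12.8 in Day4_fl_DMSO, 2.02 and 4.61 in MEF_creAF10, and 11.4 and 18.5 in Day4_creAF10_DMSO. Replicate 2 was the higher library of each pair, and MEFs and day 4 did not overlap in either genotype. The log2 change was 1.57 ± 0.54 in fl cells and 2.14 ± 0.54 after AF10 deletion (edgeR, adjusted p = 0.0391 and 0.00972). The call in fl cells was lost without MEF_fl replicate 1 (1.09, adjusted p = 0.196) or Day4_fl_DMSO replicate 2 (1.15, 0.191), and the call in AF10-deleted cells without MEF_creAF10 replicate 1 (1.70, 0.0581) or Day4_creAF10_DMSO replicate 2 (1.74, 0.0564). Without replicate 2 of the MEFs the change was larger, 2.29 without MEF_fl replicate 2 and 2.89 without MEF_creAF10 replicate 2.

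Alpl encodes the phosphatase that frees phosphate for mineral. It had 2.61 and 2.73 CPM in MEF_fl and 14.6 and 9.95 in Day4_fl_DMSO, and 1.55 and 3.96 in MEF_creAF10 and 9.38 and 7.88 in Day4_creAF10_DMSO. Here replicate 1 was the higher of each day 4 pair, the opposite of Spp1 and Dmp1, and no day 4 library overlapped a MEF library. The log2 change was 2.20 ± 0.37 in fl cells and 1.60 ± 0.37 after AF10 deletion (edgeR, adjusted p = 0.00102 and 0.00508). The latter was 2.47 without MEF_creAF10 replicate 2 and 1.1 without MEF_creAF10 replicate 1.

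Sox9 fell in both sources. It had 35.5 and 43.1 CPM in MEF_fl and 3.80 and 5.36 in Day4_fl_DMSO, and 30.6 and 41.1 in MEF_creAF10 and 4.03 and 5.25 in Day4_creAF10_DMSO. The log2 change was -3.09 ± 0.24 in fl cells and -2.95 ± 0.24 after AF10 deletion (edgeR, adjusted p = 6.81e-06 and 8.65e-06). Leaving out single libraries kept it between -3.35 and -2.87 in fl cells.

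Comp, the pentameric cartilage oligomeric matrix protein, which is also made in tendon, differed widely between the 2 sources in MEFs. It had 47.7 CPM in replicate 1 and 183 in replicate 2 of MEF_fl, and 43.5 and 182 in MEF_creAF10. On day 4 the sources were closer, at 5.92 and 9.58 CPM in Day4_fl_DMSO and 7.0 and 9.83 in Day4_creAF10_DMSO, all below both MEF sources. The log2 change was -3.88 ± 0.85 in fl cells and -3.74 ± 0.85 after AF10 deletion (edgeR, adjusted p = 0.00619 and 0.00686), and it moved with the MEF library left out. It was -4.55 without MEF_fl replicate 1 and -2.61 without MEF_fl replicate 2, and -4.43 without MEF_creAF10 replicate 1 and -2.36 without MEF_creAF10 replicate 2.

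Acan, Ibsp and Sp7 were scarce in MEFs and had a few reads on day 4, so raw counts are given. Acan, the large aggregating proteoglycan of cartilage, had 32 and 49 counts in MEF_fl, 21 and 66 in MEF_creAF10, 1 and 0 in Day4_fl_DMSO, and 0 and 1 in Day4_creAF10_DMSO. Scaled by library size, MEFs had 95.3 times as many counts as day 4 in fl cells (95% counting interval 16.6 to 3809) and 78.7 times as many in AF10-deleted cells (13.8 to 3142). These intervals cover counting error only. In the fit Acan fell, with log2 changes of -6.21 ± 0.90 and -5.92 ± 0.92 (edgeR, adjusted p = 0.00036 and 0.000478). With 1 day 4 library left out they moved by which library held the single read, from -8.39 (without Day4_fl_DMSO replicate 1) to -5.22 (without replicate 2) in fl cells, and from -8.28 (without Day4_creAF10_DMSO replicate 2) to -5.17 (without replicate 1) after deletion. Without MEF_creAF10 replicate 2 the latter was -5.24.

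Ibsp, bone sialoprotein, a mineral-nucleating protein of mature osteoblasts, had 38 and 39 counts in MEF_fl and 10 and 84 in MEF_creAF10. On day 4 it had 0 and 1 in Day4_fl_DMSO and 2 and 6 in Day4_creAF10_DMSO. The MEF libraries exceeded day 4 by 90.6 times in fl cells (15.8 to 3623) and by 10.6 times in AF10-deleted cells (5.18 to 25.3). The log2 changes were -6.15 ± 1.10 and -3.24 ± 0.80 (edgeR, adjusted p = 0.00119 and 0.00679). In fl cells it was -8.28 without Day4_fl_DMSO replicate 2 and -5.45 without Day4_fl_DMSO replicate 1. In AF10-deleted cells the call was lost without MEF_creAF10 replicate 2 (-1.46, adjusted p = 0.107) or Day4_creAF10_DMSO replicate 1 (-2.77, 0.0553), and the change was -3.97 without MEF_creAF10 replicate 1 and -4.07 without Day4_creAF10_DMSO replicate 2.

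Sp7 had 11 and 42 counts in MEF_fl and 10 and 49 in MEF_creAF10, so replicate 2 was again the richer source. It had 2 and 3 counts in Day4_fl_DMSO and 3 and 3 in Day4_creAF10_DMSO. The MEF libraries exceeded day 4 by 12.5 times (5.02 to 40.0) and 8.89 times (3.85 to 25.2). The log2 changes were -3.58 ± 0.86 and -3.00 ± 0.84 (edgeR, adjusted p = 0.00622 and 0.0123). The call in fl cells was lost without MEF_fl replicate 2 (-2.29, adjusted p = 0.0624; -4.25 without MEF_fl replicate 1), and in AF10-deleted cells without MEF_creAF10 replicate 2 (-1.85, 0.14) or either Day4_creAF10_DMSO replicate (-3.11 and -2.88, 0.0589 and 0.0729).

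**Figure D2:**
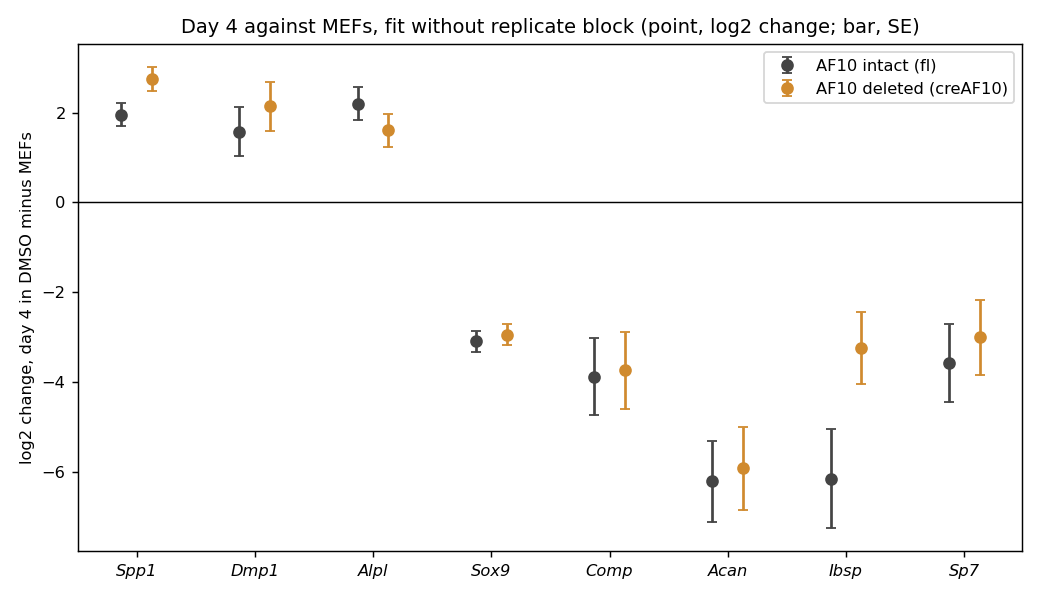
Log2 change of each of the 8 genes from MEFs to day 4 in DMSO, in the unpaired fit, grey for fl and orange for AF10-deleted cells, with bars of 1 SE. Spp1, Dmp1 and Alpl lie above 0 in both genotypes and the other 5 genes below it.

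Other genes of the skeleton did not move as 1 block between MEF_fl and Day4_fl_DMSO. Of 18 further bone matrix and mineral genes tested, 5 rose and 6 fell, with a median log2 change of 0.39 against 0.01 over all genes. Bglap and Bglap2, the remaining genes of that list, missed the filter on low counts and were not tested. Beside this list and those that follow, 25.7% of all genes were called higher in this comparison and 26.3% lower. Those that fell included Sparc (-2.12 ± 0.13), Col1a1 (-3.14 ± 0.25) and Col1a2 (-2.01 ± 0.23), the collagens and the collagen-binding glycoprotein that fibroblasts also make in bulk. Those that rose included the mineralization inhibitor Mgp (1.35 ± 0.19), the osteoclast ligand Tnfsf11 (2.86 ± 0.42) and the osteocyte WNT inhibitor Sost, which went from 0 and 0.182 CPM in MEF_fl to 2.13 and 3.94 in Day4_fl_DMSO (edgeR, adjusted p = 0.000261). With so few MEF reads, only a rise could be measured well for Sost.

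Cartilage genes and skeletal transcription factors were lower on the whole. Of 18 cartilage matrix genes tested, 11 fell and 2 rose, with a median of -1.38. Col9a2 (-2.25 ± 0.31) and Col11a1 (-1.81 ± 0.12), collagens found in or on cartilage fibrils, fell, and fibromodulin, Fmod, rose (0.58 ± 0.09). Of 15 skeletal transcription factors 10 fell and 0 rose, with a median of -1.02, among them the tendon factor Scx (-1.51 ± 0.24), Mef2c (-1.34 ± 0.15) and Twist1 (-1.02 ± 0.17). That count and median include Dlx3 and Dlx5, at 0 and 0.0917 CPM and at 0.230 and 0.229 CPM in Day4_fl_DMSO. Only a fall could be measured well for them. Scarce genes were not set apart in the counts and medians of any list. Runx2, the osteoblast factor that acts upstream of Sp7, was at 44.3 and 39.7 CPM in MEF_fl and 39.4 and 42.3 in Day4_fl_DMSO (-0.04 ± 0.12, edgeR, adjusted p = 0.792).

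The receptors of osteopontin were split. Of 9 integrin and Cd44 genes tested 2 rose, Cd44 (0.78 ± 0.20) and Itga4 (0.88 ± 0.24), and 4 fell, Itga5 (-1.20 ± 0.10), Itga8 (-1.63 ± 0.24), Itga9 (-1.30 ± 0.26) and Itgb1 (-0.68 ± 0.12). Of 7 matrix proteases 3 rose and 3 fell. Mmp3, stromelysin, which cleaves osteopontin, rose from 26.0 and 53.9 CPM in MEF_fl to 219 and 239 in Day4_fl_DMSO (2.52 ± 0.33, edgeR, adjusted p = 0.000366).

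Markers of other cell types moved with the same step, and their part in the results was not tested. The summed level of 12 macrophage genes was 6.12 to 15.0 CPM in MEFs and 54.1 to 78.8 on day 4, and 7 of 11 tested in fl cells rose and 0 fell. Laptm5 alone made up 43.6 CPM of the mean sum in Day4_fl_DMSO, while Ptprc (CD45), which defines blood cells, was at 0.115 and 0.504 CPM there. Osteoclast genes summed to 132 to 198 CPM in MEFs and 34.3 to 42.7 on day 4, most of it Ctsk, and Calcr was at 0 in all 12 libraries. Fibroblast genes summed to 20149 to 24263 CPM in MEFs and 14211 to 15288 on day 4, and 7 of 10 fell and 1 rose. Of 10 epithelial genes, whose sum was 15.7 to 23.4 CPM in MEFs and 84.6 and 86.0 in Day4_fl_DMSO, 8 were tested and 6 rose.

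AF10 deletion was compared with the empty virus in MEFs, in DMSO and in SGC0946. In MEFs 0 of the 8 genes were called by edgeR's unpaired fit, the paired fit or DESeq2, and 0, 1 and 0 had an unadjusted p under 0.05. The background there was 0% of genes in the unpaired fit, 0.962% in the paired fit and 0.129% by DESeq2. Spp1 had a paired log2 change of -0.16 ± 0.07 (edgeR, adjusted p = 0.649), the value with the unadjusted call. The 8 paired changes in MEFs lay between -0.16 and 0.06, and all 8 genes overlapped between the genotypes.

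On day 4 in DMSO, Spp1 and Dmp1 were higher in AF10-deleted cells in the paired fit. Spp1 had 1820 and 2313 CPM in Day4_creAF10_DMSO against 1201 and 1511 in Day4_fl_DMSO, without overlap. Its log2 change was 0.60 in replicate 1 and 0.61 in replicate 2. The paired fit gave 0.61 ± 0.07 (edgeR, adjusted p = 1.11e-05), while the unpaired fit gave an adjusted p of 0.688 and DESeq2 0.373. With a replicate block taken as equal in MEFs and day 4, neither Spp1 (adjusted p = 0.0622) nor Dmp1 (0.237) was called. Dmp1 had 11.4 and 18.5 CPM against 7.53 and 12.8, overlapping between sources but higher in each, with a paired change of 0.56 ± 0.13 (edgeR, adjusted p = 0.00731).

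Those 2 of 8 genes were higher calls against a paired background of 3.37% higher and 6.74% either way. In the unpaired fit 0 of 8 were called, as were 0% of all genes, and by DESeq2 0 of 8 (background 0.0861%), with 1 of 8 at an unadjusted p under 0.05 in each. DESeq2 gave Dmp1 no adjusted p in this comparison, so Dmp1 could not be called by it. In every DESeq2 count and share given here, such genes stand as not called. Alpl had 9.38 and 7.88 CPM in deleted against 14.6 and 9.95 in fl cells, without overlap (-0.49 ± 0.15, edgeR paired adjusted p = 0.0507, not called). Ibsp had 8 counts in Day4_creAF10_DMSO and 1 in Day4_fl_DMSO, a ratio of 9.49 with a counting interval of 1.27 to 421, and was not called (edgeR paired adjusted p = 0.253). Comp and Sox9 had paired changes of 0.12 ± 0.12 and 0.02 ± 0.16, and Acan and Sp7, at 0 to 3 counts per library in these groups, were too scarce to compare.

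For Spp1 the difference between genotypes on day 4 was itself compared with that in MEFs. The difference of differences was 0.77 ± 0.10 in the paired fit (edgeR, adjusted p = 0.000154), 0.64 and 0.89 in replicates 1 and 2. The unpaired fit called 0 of the 8 genes and 0% of all genes, and DESeq2 0 of the 8 and 0.0144%, with 0 and 1 of the 8 at an unadjusted p under 0.05. In the paired fit Spp1 was 1 of 8, against a background of 0.933% higher and 1.16% either way, and Dmp1 had 0.61 ± 0.23 (edgeR, adjusted p = 0.225).

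SGC0946 was compared with DMSO in fl cells on day 4. Spp1 had 2379 and 3046 CPM in Day4_fl_SGC against 1201 and 1511 in Day4_fl_DMSO. Both treated libraries were above both vehicle libraries, and the log2 change was 0.99 in replicate 1 and 1.01 in replicate 2. The paired fit gave 1.00 ± 0.07 (edgeR, adjusted p = 1.18e-10), DESeq2 an adjusted p of 0.00138 and the unpaired fit 0.123.

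Dmp1 had 12.6 and 17.2 CPM in Day4_fl_SGC, against 7.53 and 12.8 in Day4_fl_DMSO, and the groups overlapped. Its change was 0.70 in replicate 1 and 0.41 in replicate 2, and 0.57 ± 0.13 in the paired fit (edgeR, adjusted p = 0.00201). Acan had 6 and 3 counts in Day4_fl_SGC and 1 and 0 in Day4_fl_DMSO, a ratio of 11.6 (counting interval 1.61 to 508). It was called higher in the paired fit (edgeR, adjusted p = 0.0407) and not in the unpaired one (adjusted p = 0.282). Its treated level, 0.08 TPM on average, stayed below the 0.72 TPM of MEF_fl.

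Of the 5 genes with enough reads on day 4, the paired fit called 2, Spp1 and Dmp1, both higher, against a background of 10.6% higher and 17.7% either way. The Acan call rests on 9 counts against 1 and is left out of that count. The unpaired fit called 0 of 8 against 1.11% of all genes, with 2 of 8 at an unadjusted p under 0.05, and DESeq2 called 1, Spp1, against 2.2%. With a replicate block taken as equal in MEFs and day 4, Spp1 was the 1 gene called, against 5.78%. Alpl (13.3 and 9.62 CPM), Sox9 (4.25 and 5.34) and Comp (5.17 and 7.84) overlapped their vehicle values, with paired changes of -0.09 ± 0.15, 0.07 ± 0.16 and -0.25 ± 0.13. Ibsp had 2 and 2 counts and Sp7 1 and 1 in Day4_fl_SGC, too few for a change to be detectable.

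In AF10-deleted cells the inhibitor was compared with DMSO in the same way. Spp1 had 2566 and 3313 CPM in Day4_creAF10_SGC against 1820 and 2313 in Day4_creAF10_DMSO, with a paired change of 0.51 ± 0.07 (edgeR, adjusted p = 2.71e-05) and 0.50 and 0.52 in replicates 1 and 2. Comp had 4.17 and 6.06 CPM against 7.0 and 9.83, without overlap, and fell by 0.72 ± 0.14 on the log2 scale (edgeR adjusted p = 0.000964 in the paired fit and 0.967 in the unpaired one). Dmp1 had 8.26 and 15.3 CPM against 11.4 and 18.5 (-0.36 ± 0.13, edgeR paired adjusted p = 0.0858, not called).

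The paired fit thus called 1 gene higher and 1 lower of 8, against a background of 5.28% higher, 2.47% lower and 7.75% either way. With the replicate block taken as equal in both stages Spp1 was the 1 gene called, against 0.667%. The unpaired fit and DESeq2 called 0 of 8, with 0 and 1 at an unadjusted p under 0.05, and the backgrounds were 0.00718% and 0.344%. Acan had 6 and 2 counts against 0 and 1, a ratio of 7.75 (1.04 to 344), and was not called (edgeR paired adjusted p = 0.178). Ibsp had 1 and 1 counts and Sp7 2 and 3 in Day4_creAF10_SGC. Sox9 and Alpl had paired changes of -0.12 ± 0.16 and -0.08 ± 0.16. The comparisons of inhibitor and of deletion on day 4 share the vehicle or treated groups, so their values are not independent of each other.

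The change with SGC0946 was smaller in AF10-deleted than in fl cells for Spp1 and differed for Dmp1. For Spp1 the difference of the 2 changes was -0.49 ± 0.10 in the paired fit (edgeR, adjusted p = 0.0177), -0.49 in replicate 1 and -0.49 in replicate 2. For Dmp1 it was -0.92 ± 0.18 (edgeR, adjusted p = 0.0108), -1.14 and -0.68 in the replicates. Those 2 of 8 stood against a paired background of 0.323% lower and 0.395% either way. The unpaired fit and DESeq2 called 0 of 8 against 0% and 0.0144% of all genes, with 0 at an unadjusted p under 0.05. Comp had a difference of -0.46 ± 0.19 (edgeR paired adjusted p = 0.36), so its fall with the inhibitor was not shown to differ between genotypes.

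In SGC0946 itself AF10-deleted and fl cells differed by 0.12 ± 0.07 for Spp1 (edgeR paired adjusted p = 0.755) and by -0.37 ± 0.13 for Dmp1 (adjusted p = 0.405). The background was 0% unpaired, 0.172% paired and 0.0144% by DESeq2, and 0 of 8 genes were called by the unpaired fit, the paired fit or DESeq2, with 0, 3 and 0 at an unadjusted p under 0.05. In each source Spp1 stood lowest in MEFs, then in Day4_fl_DMSO, Day4_creAF10_DMSO, Day4_fl_SGC and Day4_creAF10_SGC. The last pair of neighbours did not pass the adjusted threshold in any fit, and neither did the 2 MEF groups. The step from Day4_creAF10_DMSO to Day4_fl_SGC was not tested. Dmp1 had another order: in replicate 1 Day4_fl_SGC was highest at 12.6 CPM, and in replicate 2 Day4_creAF10_DMSO was, at 18.5.

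**Figure D3:**
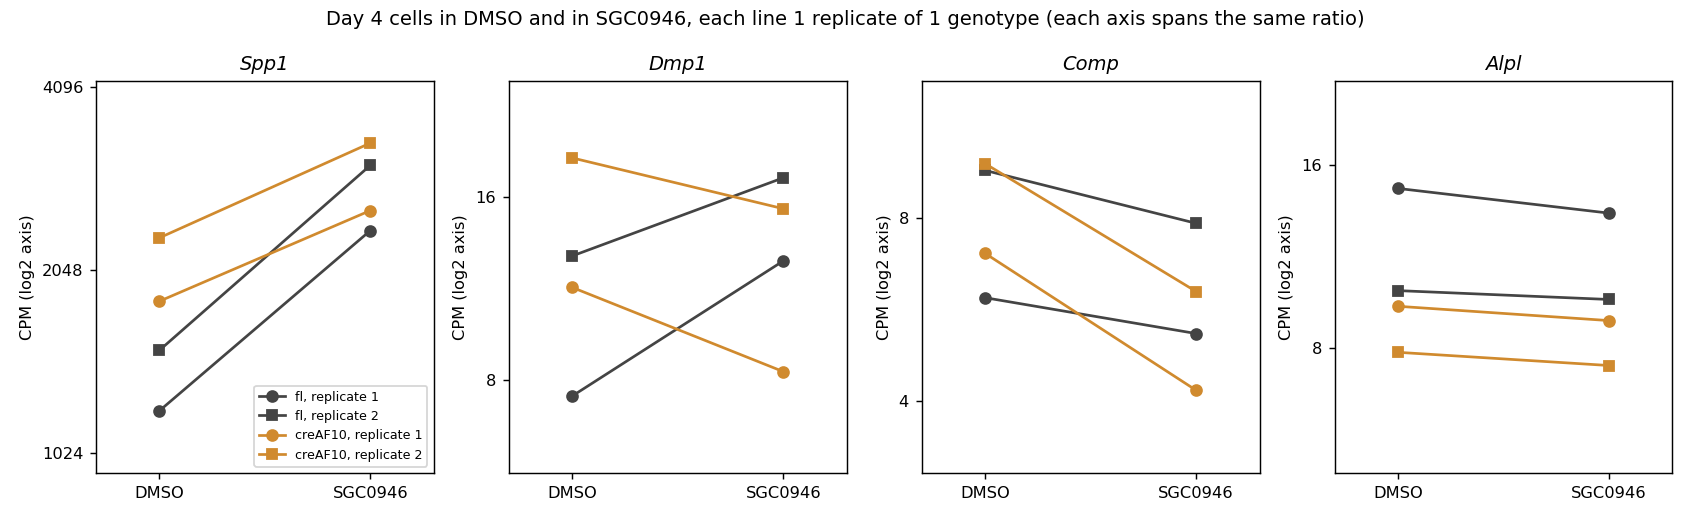
Day 4 CPM (log2 axis, the same ratio in each panel) of Spp1, Dmp1, Comp and Alpl in DMSO and in SGC0946. Each line joins the 2 libraries of 1 replicate number, grey for fl and orange for creAF10. The 4 Spp1 lines go up, more steeply in fl (1.00 on the log2 scale) than in AF10-deleted cells (0.51), and the Dmp1 lines go up in fl and down in AF10-deleted cells.

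Neighbours of Spp1 and Dmp1 on chromosome 5 were read in the same fit. Sparcl1, a matrix glycoprotein gene before Dspp and Dmp1, had 11.8 and 19.4 CPM in Day4_fl_DMSO and 24.6 and 32.0 in Day4_fl_SGC, and rose with the inhibitor (0.87 ± 0.10, edgeR paired adjusted p = 4.52e-07). It also rose with deletion in DMSO (0.52 ± 0.10, 0.00288), but it fell from MEFs to day 4 (-2.06 ± 0.54, edgeR unpaired adjusted p = 0.0132), unlike Spp1. Pkd2, the next protein-coding gene after Spp1, rose with the inhibitor by 0.36 ± 0.07 (edgeR paired adjusted p = 0.000189), whereas Nudt9 and Hsd17b11, farther out, had 0.12 ± 0.09 and 0.02 ± 0.08 and Hsd17b13, a low transcript, 1.05 ± 0.47 (edgeR paired adjusted p = 0.132). Mepe and Dspp, inside the cluster, were at or below 0.0674 and 0.198 CPM in every library and missed the filter.

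The skeletal lists were read for SGC0946 in fl cells too. Of 18 cartilage genes 6 rose and 0 fell in the paired fit, beside 10.6% of all genes higher, with a median of 0.35 against -0.01 over all genes, and in the unpaired fit Col9a2 alone was called. Col9a2 had 1.67 and 1.60 CPM in Day4_fl_DMSO and 6.34 and 6.79 in Day4_fl_SGC (2.00 ± 0.31, edgeR unpaired adjusted p = 0.0199). Prg4, lubricin of joint surfaces, had 12.7 and 18.5 CPM against 31.3 and 38.3 (1.16 ± 0.11, edgeR paired adjusted p = 5.86e-08). Lect1 (chondromodulin) rose by 2.15 ± 0.27 and Col10a1, the collagen of hypertrophic cartilage, by 0.73 ± 0.09.

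Among the transcription factors Runx2 fell with the inhibitor, from 39.4 and 42.3 CPM to 24.6 and 22.8 (-0.78 ± 0.12, edgeR unpaired adjusted p = 0.0199), as did Zfp521 (-0.45 ± 0.08, 0.0395). The paired fit called 3 of 15 higher and 4 lower. Of 18 bone matrix genes it called 5 higher and 1 lower, and of 9 osteopontin receptors 3 higher and 2 lower. Beside these counts stood 10.6% of all genes higher and 17.7% either way. With deletion in DMSO the paired fit called 5 cartilage genes higher and 1 lower, and 1 bone matrix gene higher, Mgp (0.38 ± 0.07). It also called 2 transcription factors lower, among them Runx2 (-0.38 ± 0.09). The background with deletion was 3.37% of all genes higher and 6.74% either way. Mmp3 rose with deletion (0.64 ± 0.08) and with the inhibitor in fl cells (0.94 ± 0.08).

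**Figure D4:**
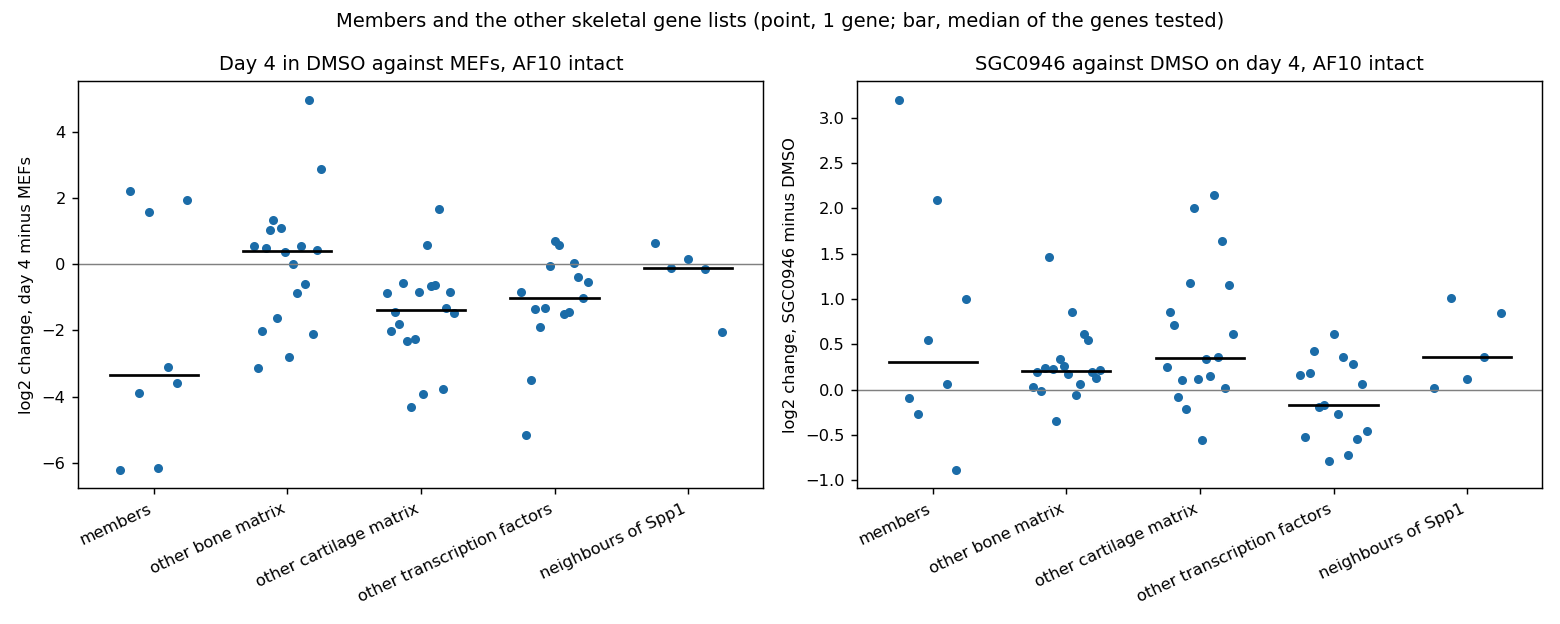
Log2 change in the unpaired fit of the 8 genes (members), of the other bone matrix, cartilage matrix and transcription factor genes and of the chromosome 5 neighbours of Spp1, for day 4 against MEFs (left) and SGC0946 against DMSO (right) in fl cells. Each point is 1 gene tested and each bar the median. The cartilage median lies at -1.38 on the left and at 0.35 on the right.

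Epithelial genes moved with Spp1 among the day 4 groups. Their sum was 84.6 and 86.0 CPM in Day4_fl_DMSO, 109 and 113 in Day4_creAF10_DMSO, 180 and 166 in Day4_fl_SGC and 182 and 170 in Day4_creAF10_SGC, and their part in the Spp1 result was not tested. Of 8 tested, 8 rose with the inhibitor in fl cells in the paired fit and 4 in the unpaired one. Beside them, 10.6% of all genes were higher in the paired fit, and 1.11% were called either way in the unpaired one. The macrophage sum, most of it Laptm5, was 69.0 and 78.8 CPM in Day4_fl_DMSO, 54.1 and 78.6 in Day4_creAF10_DMSO, 64.9 and 78.4 in Day4_fl_SGC and 62.6 and 74.8 in Day4_creAF10_SGC. Single macrophage genes went apart with the inhibitor in fl cells: Cd14 rose by 1.2 ± 0.27, while Lyz2 changed by -1.04 ± 0.25 and Emr1 by -1.04 ± 0.36 (edgeR paired adjusted p = 0.00172, 0.0158 and 0.0421), and the part of such cells was not tested. The summed reprogramming factors were 782 and 768 CPM in Day4_fl_DMSO and 671 and 642 in Day4_creAF10_DMSO. They were 671 and 645 CPM in Day4_fl_SGC and 583 and 579 in Day4_creAF10_SGC. In each source their sum was lower with deletion and lower with the inhibitor, and their part was not tested either.

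The genes most like some of the 8 across the 12 libraries were read from Pearson's r of log2 CPM, as a description. All 12 points share the MEF and day 4 step and the 2 sources. The 3 nearest to Spp1 were Trp63 (0.994), the p63 factor of stratified epithelia, Mmp3 (0.993) and Aox3 (0.992). For Dmp1 they were Kcnh1 (0.978), Slc45a3 (0.975) and Gstm7 (0.974), and for Comp Fgfr2 (0.997), Bambi (0.991) and Npr3 (0.991). Ibsp, Acan and Sp7 had too few day 4 reads for such a likeness to say much.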

How the data were processed

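Polyadenylated RNA of 12 libraries was sequenced from TruSeq libraries, per the labels' protocols. RSEM with Bowtie on mm9 is named in the submitters' processing notes, and versions and options are not given in the sources used here. The deposited tables hold RSEM expected counts, per the file headers, and the TPM and FPKM that the authors' run derived from them. RSEM shares reads among genes with alike sequence. FPKM was not used.

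Genes were matched by transcript identifier, since 10 of the tables hold 25 gene names that read as dates. Expected counts were rounded, filterByExpr kept 13936 of 20325 genes, and totals were scaled by TMM. The main test was edgeR 4.0.16 (R 4.3.3), a quasi-likelihood F test with robust dispersions fitted to all 12 libraries with 1 term for each group (the unpaired fit) and Benjamini-Hochberg adjustment over all genes kept. SE is the log2 change over the square root of F. CPM values use TMM-scaled totals.

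The replicate numbers were checked for pairing from the deviations of libraries from their group means: the correlation across genes was 0.286 to 0.737 over 15 pairs of groups, all above 0.1, and at least 0.413 within a stage. Summed counts of 4 Y-linked genes were 4035 to 4780 in replicate 1 libraries and 8.29 to 51.8 in replicate 2. The numbers were therefore taken to mark 2 sources of cells, which the labels do not name. Between MEFs and day 4 the correlation was 0.286 to 0.340, so the same 2 sources in both stages were assumed. Replicate 1 thus held male cells and replicate 2 few or none, so source and sex cannot be told apart. The paired fit therefore held a replicate term within each stage. The biological coefficient of variation was 0.148 unpaired and 0.0549 paired. Its error rests on few residual degrees of freedom and much sharing across genes.

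On simulated counts for SGC0946 in fl cells over 13936 genes, the unpaired fit recovered 88 of 100 genes changed by 1 on the log2 scale with 0 false calls, and the paired fit 100 with 7. The simulation gave every gene the same spread, near that of the paired fit, and the same source effect in both stages. It held no changes below 1, none in scarce genes and no differences of changes. It therefore cannot show how reliable the paired calls are in these data. DESeq2 1.42.0 and other scalings, filters and left-out libraries were alternatives. The 8 genes, the gene lists, the motifs and the alternatives were chosen with earlier results of these data known. Named genes were the 8, the strongest called genes of each list and the 3 most alike per member, of which those of Spp1, Dmp1 and Comp are reported here. Others named (Runx2, Pkd2 and its neighbours, Mmp3, Sost) were picked after their values were seen or for their known role.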

Additional observations from a re-analysis of the deposited data

Results flagged for a closer look

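The change of Spp1 with SGC0946 differed between AF10-deleted and fl cells by -0.49 on the log2 scale, and that of Dmp1 by -0.92, each by the test of the difference in the paired fit. The change of Spp1 with AF10 deletion differed between day 4 and MEFs by 0.77 in the same fit. The unpaired fit called none of these 3 (edgeR, 0 of 8 genes in each test of a difference). Such differences were not particular to the 8 genes. For the inhibitor, the paired fit also called Mgp (-0.52 ± 0.10) and Prg4 (-0.70 ± 0.16) (edgeR, adjusted p = 0.00793 and 0.0484). For the deletion it also called Sparcl1 (0.64 ± 0.13) and Prg4 (0.70 ± 0.16) (edgeR, adjusted p = 0.0115 and 0.0287). Most other genes of their lists were not called. With 2 libraries a group, single libraries could not be tested for standing apart.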

How the results depend on the processing

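The unpaired fit called all 8 genes, 3 of them tested only through their MEF counts, for day 4 against MEFs in each genotype, and leaving out single libraries gave 7 to 8 in fl cells and 6 to 7 after AF10 deletion. Of all genes, 52% were called in fl cells and 55% after AF10 deletion. The unpaired fit called 0 of the 8 in every other comparison, beside 0% to 1.11% of all genes, and leaving out single libraries kept 0. With a replicate block per stage, which uses the pairing, the count became 2 for deletion in DMSO, 3 for SGC0946 in fl cells, 2 for SGC0946 in AF10-deleted cells, 2 for the difference of the inhibitor's change between genotypes and 1 for the difference of the deletion's change between day 4 and MEFs. In the same order, 6.74%, 17.7%, 7.75%, 0.395% and 1.16% of all genes were called. The 3 for SGC0946 in fl cells include the Acan call, which rests on 9 counts against 1. A replicate block taken as equal in both stages gave 1 for SGC0946 in fl cells and 1 after AF10 deletion, beside 5.78% and 0.667% of all genes. The gene was Spp1 in both (edgeR, adjusted p = 0.000212 and 0.0282). For deletion in DMSO that block gave 0 (edgeR, adjusted p = 0.0622 for Spp1 and 0.237 for Dmp1). It did not call the differences (adjusted p = 0.896 for Spp1 and for Dmp1 between genotypes, and 0.174 for Spp1 between stages). For SGC0946 in fl cells DESeq2 gave 1, beside 2.2% of all genes. A fit over the compared groups alone gave 1 of 5 genes tested, Spp1 (edgeR, adjusted p = 0.0248). The Dmp1 rise on day 4 in fl cells missed the threshold with no filter (1.58, adjusted p = 0.0579) and with the compared groups alone (1.58, 0.0539), and so did Ibsp in AF10-deleted cells with the compared groups alone (-3.24, 0.0577). The causes were not tested. No direction reversed under the alternatives run, for the genes and comparisons called in the unpaired or the paired fit. Directions of uncalled changes were not checked.

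The calls between day 4 groups rest on pairing 2 sources of cells, and Acan, Ibsp and Sp7 had 0 to 6 counts per day 4 library, so changes among day 4 groups were hardly detectable for them at this depth.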
